A study of Homo sapiens with 2 samples.

Results

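The TRIM family was described in H1299, a human line from non-small cell lung carcinoma with no p53 of its own, on 1 array of cells with p53 and 1 array of a negative control. The design concerns p53 and 5-hydroxymethylcytosine in gene regulation, and the sources used here do not give how p53 was introduced, at what level or for what time. The labels name no animal, clone or agent besides p53 and the negative control, and both groups share the H1299 background. Members were the genes with a probe set of their own whose platform symbol begins with TRIM and a digit, pseudogenes left out, which gave 55 of 18417 named genes. Of the 55, 54 encode proteins and 1, TRIM67-AS1, is a non-coding RNA antisense to TRIM67.

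TRIM proteins carry a tripartite motif of a RING finger, one or more B-box zinc fingers and a coiled coil, followed by a C-terminal domain that selects substrates and sorts the family into classes. Most act as ubiquitin ligases. Members are known for antiviral defence, for control of transcription and for binding p53 or MDM2, and TRIM22 and TRIM8 are known as genes that p53 induces.

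Log2 intensities are given for each array, and differences are the p53 array minus the negative control array. With 1 array per group there is no replicate error and no p-value, and a gene is called higher or lower at 2-fold, a rule of size. In RNA from bulk cells, fewer expressing cells and less RNA per cell cannot be told apart. The median of all probe sets was 7.38 on the p53 array and 7.38 on the negative control array, and 35.9% of probe sets held the same value in both. The transcript of p53 itself was not analysed here. CDKN1A, which encodes the cell cycle inhibitor p21, stood at 12.66 on the p53 array and 9.18 on the negative control array. Of 8 markers listed for carcinoma cells, the keratin genes KRT8, KRT18 and KRT7 lay above the median in both arrays. So did VIM, a mesenchymal rather than an epithelial marker. KRT19, EPCAM, CDH1 and NKX2-1 lay below the median. PTPRC, the pan-leukocyte marker, stood at 4.39 in both. The haematopoietic markers CD68 and ITGAM lay above the median in both arrays, with differences of -0.38 and 0.78, and the other 4 of the 6 measured were equal. All 6 fibroblast and endothelial markers were equal, and of these COL1A1 alone lay above the median, at 8.14. The part of other cells in the results was not tested.

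Promoter sequences are shown for 3 of the 6 TRIM genes at least 2-fold apart, TRIM26, TRIM16 and TRIM59, and for TRIM5, which lies close to TRIM22 on chromosome 11 and was equal in both arrays. Each is the 250 bases before the RefSeq start in GRCh38.p14, read on the minus strand, with matches to the interferon-stimulated response element in capitals. The element was searched on both strands as 2 copies of GAAA set 2 bases apart. The window of TRIM26 lies at chr6:30213407-30213656, that of TRIM16 at chr17:15682952-15683201, that of TRIM59 at chr3:160449787-160450036 and that of TRIM5 at chr11:5685075-5685324.
TRIM26: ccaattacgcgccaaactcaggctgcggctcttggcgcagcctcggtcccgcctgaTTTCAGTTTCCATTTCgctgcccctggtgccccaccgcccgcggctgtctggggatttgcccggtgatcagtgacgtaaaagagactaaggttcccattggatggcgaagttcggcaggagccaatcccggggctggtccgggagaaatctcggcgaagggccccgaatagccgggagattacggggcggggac
TRIM16: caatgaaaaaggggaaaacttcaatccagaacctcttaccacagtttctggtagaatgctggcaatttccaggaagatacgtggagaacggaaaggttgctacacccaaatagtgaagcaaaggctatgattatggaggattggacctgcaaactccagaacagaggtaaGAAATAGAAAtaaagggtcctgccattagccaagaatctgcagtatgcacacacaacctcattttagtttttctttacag
TRIM59: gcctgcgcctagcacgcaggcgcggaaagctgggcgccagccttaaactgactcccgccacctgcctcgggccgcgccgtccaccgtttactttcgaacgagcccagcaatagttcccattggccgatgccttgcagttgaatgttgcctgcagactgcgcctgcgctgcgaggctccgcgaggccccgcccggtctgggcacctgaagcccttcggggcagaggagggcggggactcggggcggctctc
TRIM5: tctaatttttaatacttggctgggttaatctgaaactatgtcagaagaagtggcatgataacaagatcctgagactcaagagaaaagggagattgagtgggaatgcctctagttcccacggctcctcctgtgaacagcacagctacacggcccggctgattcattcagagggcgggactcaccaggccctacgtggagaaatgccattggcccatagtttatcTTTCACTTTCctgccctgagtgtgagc
TRIM26 held 2 matches that overlap each other, between 194 and 179 bases before the start. TRIM16 held 1 match, 80 to 71 bases before the start, and TRIM5 held 1, 27 to 18 bases before it. TRIM59 held none. The element was found in 3.02% of all 35116 promoter windows of this length and in 7 of 58 windows of the TRIM genes (12.1%), which belong to 43 genes. The 7 genes with a match were TRIM2, TRIM5, TRIM14, TRIM16, TRIM26, TRIM44 and TRIM69. TRIM26 alone was higher with p53 (1.63). TRIM16 was lower (-1.01), and TRIM14 (-0.68), TRIM2 (-0.11) and TRIM44 (-0.08) were lower by less than 2-fold. TRIM5 and TRIM69 were equal. TRIM2, TRIM5 and TRIM69 lay below the median of all probe sets in both arrays. The part of the element in these differences was not tested. The p53 half-site, searched on both strands, matched 5.57% of all windows and 5 of the 58 TRIM windows (8.62%). Those windows belong to TRIM10, TRIM48, TRIM51, TRIM67-AS1 and TRIM71, none of which was 2-fold apart. TRIM22, TRIM8 and TRIM35 were not searched for either motif. A match describes letters in these windows and no binding. Whether each RefSeq start, that of TRIM16 among them, is a start of transcription in these cells was not tested.

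With p53, 4 TRIM genes were at least 2-fold higher, 2 were at least 2-fold lower and 49 were neither. The higher genes were TRIM22, TRIM26, TRIM8 and TRIM35, and the lower ones TRIM59 and TRIM16. The 4 of 55 are 7.27%, beside 5.22% of all named genes, and the 2 of 55 are 3.64%, beside 3.70%, so both shares lie near the background. At 1.5-fold, 7 TRIM genes were higher and 7 lower (12.7% each), beside 9.40% and 10.1% of all named genes. At 3-fold, TRIM22 and TRIM26 were higher and TRIM59 was lower, beside 2.47% and 0.956% of all named genes. The median difference was 0.00 over the 55 members and 0.00 over all named genes. Equal values hold both medians there: 19 members (34.5%) and 35.3% of all named genes were equal to every deposited digit. Of the 36 members that differed, 17 were higher and 19 lower, with a median of -0.03, against -0.07 for all unequal genes.

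**Figure D1:**
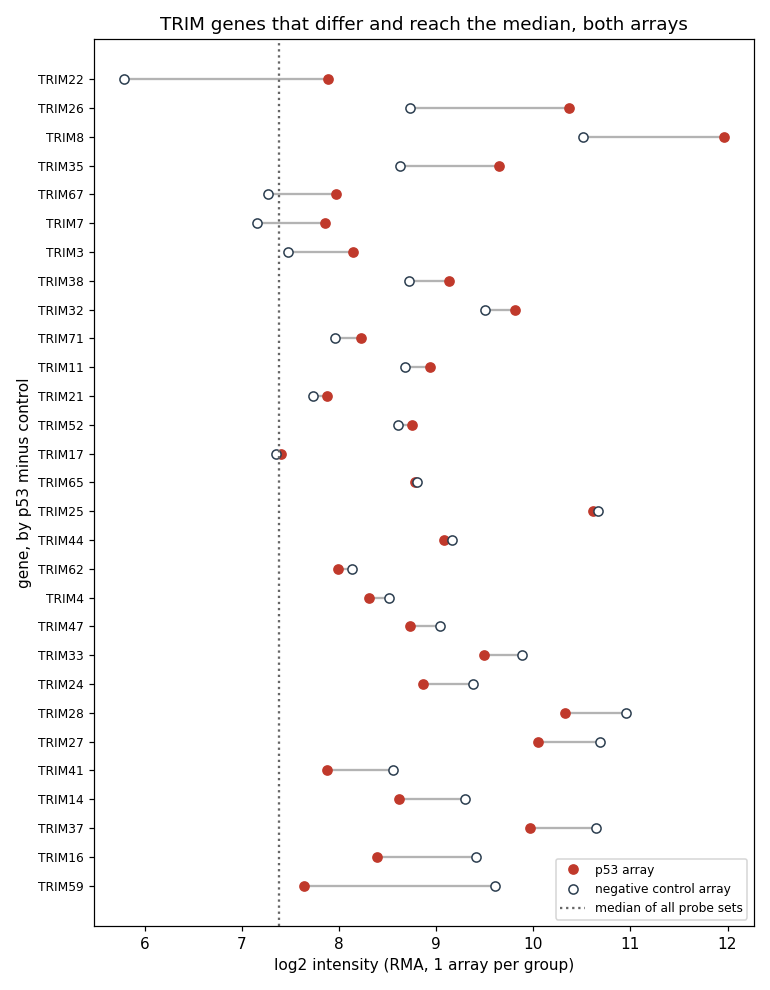
Log2 intensity (x axis) of the 29 TRIM genes that differ between the arrays and whose higher array reaches the median of all probe sets, with the p53 array as filled and the negative control array as open points, 1 array each. Genes run from the largest positive difference, TRIM22 at 2.09, to the largest negative one, TRIM59 at -1.97; only points on the same line can be compared.

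TRIM22, an interferon-inducible ubiquitin ligase that restricts viruses and a known p53 target, had the largest positive difference of the family. It stood at 7.89 on the p53 array and 5.79 on the negative control array, a 4.27-fold difference, and 1.25% of all named genes had a difference as high or higher. Its value on the negative control array was under the 25th percentile of the whole table, 5.97, so its fold rests on a dim signal. Taken from that floor, a limit chosen after the data were seen, the difference was 1.91, or 3.77-fold.

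TRIM26, a ligase of innate immune signalling encoded in the major histocompatibility complex region, stood at 10.37 on the p53 array and 8.73 on the negative control array, a 3.10-fold difference. A second probe set of the gene gave 10.24 with p53 and 8.66 in the negative control, so the pair read differences of 1.63 and 1.59. These sets may share probes and are not replicates. TRIM8, a known stabiliser of the p53 protein, stood at 11.96 with p53 and 10.51 in the negative control, 2.72-fold higher. TRIM35, linked to growth arrest and apoptosis in blood cells, was at the threshold, with 9.65 on the p53 array and 8.63 on the negative control array, a difference of 1.02 that was 0.96 with an offset of 32.

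TRIM59, a membrane-anchored ligase that promotes ubiquitination of p53, had the largest negative difference. Its level was 7.64 on the p53 array and 9.61 on the negative control array, 3.92-fold lower with p53, and 0.478% of all named genes had a difference as low or lower. TRIM16, which lacks a RING finger and takes part in autophagy of damaged endomembranes, stood at 8.40 with p53 and 9.41 in the negative control. Its difference of -1.01 lies just past the threshold and was -0.94 with the lowess trend on intensity removed, -0.99 after quantile normalization and -0.95 with an offset of 32. A probe set that also reads the near-identical copy TRIM16L gave 9.09 with p53 and 10.17 in the negative control, a difference of -1.08. How much of the TRIM16 signal comes from that copy was not tested.

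Among members that did not reach 2-fold, the nearest on the higher side was TRIM67, a neuronal member, at 7.97 on the p53 array and 7.27 on the negative control array. On the lower side it was TRIM37, a regulator of centriole assembly whose loss causes mulibrey nanism, at 9.96 with p53 and 10.65 in the negative control. These differences of 0.70 and -0.68 stand well inside the 2-fold rule, so TRIM35 and TRIM16 are the members whose calls lie within 0.02 of it.

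**Figure D2:**
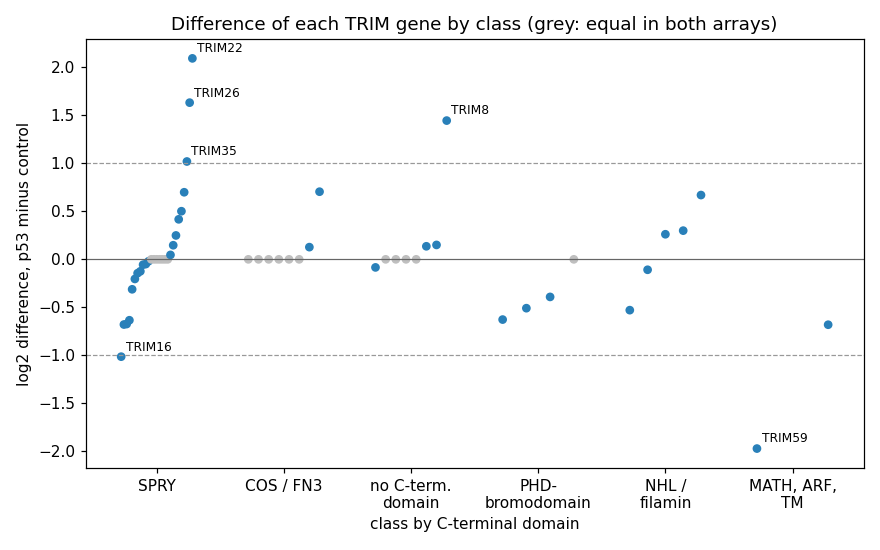
Log2 difference, p53 array minus negative control array (y axis), of each TRIM gene in 6 groups by C-terminal domain (x axis), with grey points for genes equal in both arrays and dashed lines at 2-fold. TRIM22, TRIM26, TRIM35 and TRIM16 belong to the SPRY group, TRIM8 has no C-terminal domain, and TRIM59 shares its group with TRIM37.

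The SPRY class, whose C-terminal domain recognises substrates such as viral capsids, held 27 of the measured members. At 2-fold, 3 of these were higher with p53, 1 was lower and 23 did not qualify. These are 11.1% and 3.70%, beside 5.22% and 3.70% of all named genes, and the class median was 0.00. Besides the called genes, TRIM7, a partner of glycogenin, stood at 7.86 with p53 and 7.16 in the negative control, and TRIM38, a restraint on innate immune signalling, at 9.13 with p53 and 8.72 in the negative control. On the other side, TRIM14, an adaptor of antiviral signalling, stood at 8.62 with p53 and 9.30 in the negative control. TRIM41, a ligase of protein kinase C, stood at 7.88 with p53 and 8.56 in the negative control, and TRIM27, a transcriptional repressor, at 10.05 with p53 and 10.69 in the negative control. Differences of these 3 lay between -0.68 and -0.63. Smaller differences were those of TRIM11 (0.25), TRIM21 (0.15), the cytosolic antibody receptor, TRIM17 (0.05), TRIM62 (-0.14), TRIM4 (-0.20) and TRIM47 (-0.31). TRIM65 (-0.02) and TRIM25 (-0.06), both ligases of viral RNA sensing, turned sign with the lowess trend removed, to 0.05 and 0.04. TRIM15 and TRIM68 were equal in both arrays.

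All 3 members of the PHD-bromodomain class that differed were lower with p53, none of them by 2-fold. Of all named genes that differed, 58.4% were lower. Proteins of this class act on transcription. TRIM28, the corepressor of KRAB zinc finger proteins and a partner of MDM2, stood at 10.32 on the p53 array and 10.95 on the negative control array, a difference of -0.63. TRIM24, which ubiquitinates p53, had a level of 8.87 with p53 and 9.38 in the negative control (-0.51). TRIM33, a regulator of SMAD signalling, stood at 9.50 with p53 and 9.89 in the negative control (-0.39), and TRIM66 was equal at 7.75. The class median was -0.45, beside 0.00 for all named genes, where equal values hold it. Among unequal values the median was -0.51 for the class and -0.07 for all named genes. It was -0.09 for unequal named genes whose higher array reached the median of all probe sets. With the lowess trend removed, the differences were -0.53 for TRIM28, -0.43 for TRIM24 and -0.30 for TRIM33.

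The NHL and filamin group held 5 members, none of them 2-fold apart, with a median of 0.26. TRIM3, a brain-expressed ligase, stood at 8.15 on the p53 array and 7.48 on the negative control array. TRIM32, mutated in a limb-girdle muscular dystrophy, stood at 9.81 with p53 and 9.51 in the negative control, and TRIM71, a repressor of mRNAs in stem cells, at 8.23 with p53 and 7.96 in the negative control. TRIM45 (-0.53) and TRIM2 (-0.11), a ligase of neurofilament, lay below the median of all probe sets in both arrays.

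Of the 8 measured members without a C-terminal domain, TRIM8 was the 1 gene past 2-fold, which is 12.5% higher, beside 5.22% of all named genes. TRIM52 (0.14) and TRIM44 (-0.08), which lacks a RING finger, differed little, and TRIM56, an antiviral ligase, was equal at 8.10. Of the 8 members with a COS box or fibronectin domain, which bind microtubules or muscle sarcomeres, 6 were equal in both arrays. TRIM67 and TRIM9 (0.13) were the members that differed, and TRIM46 was equal at 7.59. The muscle ligase genes TRIM63, TRIM54 and TRIM55 and the membrane repair gene TRIM72 lay below the median of all probe sets in both arrays, with differences from -0.05 to 0.00.

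In all, 34 of the 55 members (61.8%) reached the median of all probe sets in at least 1 array, beside 62.1% of all named genes. All 6 called genes are among them, which lends the calls no support, since a gene can pass through the array where it is higher. Of all named genes, 939 of the 962 called higher and 662 of the 681 called lower passed as well. TRIM22, TRIM67, TRIM7 and TRIM17 reached it on the p53 array alone. The other 21 lay below the median in both arrays, from 4.82 to 7.31, and 14 of them were equal. Of these dim members TRIM45 (-0.53) and TRIM51 (0.50) differed most. The 3 probe sets of TRIM51 disagreed, with 0.50 for the one used and -0.14 for each of the other two, which held identical values. TRIM5, TRIM10, TRIM29, TRIM31, TRIM36, TRIM40, TRIM42, TRIM48, TRIM50, TRIM54, TRIM55, TRIM63, TRIM69 and TRIM67-AS1 were the dim members equal in both arrays. TRIM61 (0.15) and TRIM60 (-0.12) complete the family. Why the deposited values of many probe sets are equal was not tested, and an equal value is no measurement of an unchanged level.

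Of the members known to bind or ubiquitinate p53 or to be induced by it, 8 were measured. TRIM22 and TRIM8 were at least 2-fold higher, TRIM59 was at least 2-fold lower, and 5 did not reach 2-fold, beside 5.22% higher and 3.70% lower of all named genes. Their median difference was 0.07. Of the 8, 4 stood above 0, 3 stood below it and 1 was equal. TRIM24 was among the 3 below 0, with a difference of -0.51. What these members do to p53 in these cells was not tested. Outside the family, 11 regulators of p53 ubiquitination were measured. The ligase genes RNF144B and MDM2 were 42.6-fold and 6.55-fold higher, and DTL, a substrate receptor of a ubiquitin ligase, was 6.70-fold lower. Below 2-fold, COP1 had a difference of 0.81, RCHY1 of 0.63 and the deubiquitinase gene USP7 of 0.57, while HUWE1 had -0.40, CUL4A -0.37, UBE4B -0.21 and MKRN1 0.01, and MDM4 was equal. The median of these 11 was 0.01.

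Of 8 measured antiviral members, TRIM22 and TRIM26 passed 2-fold upward and no member did so downward, beside 5.22% and 3.70% of all named genes, and the median was 0.07. TRIM14 of this list had a difference of -0.68. Interferon signalling genes were measured on the same arrays. At 2-fold, 5 of 17 were higher with p53 and 0 were lower, beside 5.22% and 3.70% of all named genes, and the median was 0.11. IRF1, a transcription factor of the interferon response, stood at 10.33 on the p53 array and 7.45 on the negative control array, a 7.34-fold difference. IFIT3 (3.51), IFIT1 (1.75), ISG15 (1.58) and IFIH1 (1.29), all interferon-induced, were the others. On the negative control array IFIT3 stood at 5.81, under the 25th percentile of the whole table (5.97), so its difference starts from a dim signal. Other interferon-induced genes of the list did not reach 2-fold: the difference was 0.33 for OAS1, 0.32 for IFIT2 and 0.09 for MX1, and RIGI was equal at 8.80. OAS1, IFIT2 and MX1 lay below the median of all probe sets in both arrays, so their differences rest on dim signals. MAVS, the adaptor of viral RNA sensing, had a difference of -0.61 and IRF3 of -0.37. The kinase genes JAK1 (-0.11) and TYK2 (0.14), the receptor genes IFNAR1 (0.11) and IFNAR2 (-0.18) and the factor genes IRF7 (0.01) and IRF9 (equal at 7.64) were less than 2-fold apart. The part of the interferon genes in the values of TRIM22 and TRIM26 was not tested.

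In the RefSeq table, 8 pairs of TRIM members follow each other with 0 protein-coding genes between them. Both members differed between the arrays in 4 of the pairs. TRIM11 (0.25) and TRIM17 (0.05) on chromosome 1 and TRIM47 (-0.31) and TRIM65 (-0.02) on chromosome 17 had the same sign, although TRIM65 turned with the lowess trend removed. TRIM7 (0.70) and TRIM41 (-0.67) on chromosome 5 and TRIM61 (0.15) and TRIM60 (-0.12) on chromosome 4 lay on opposite sides of 0. On chromosome 6, TRIM31, TRIM40, TRIM10 and TRIM15, which precede TRIM26, were equal in both arrays and give no direction. The 55 members lie on 16 chromosomes.

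Several TRIM genes were read through probe sets that carry more than 1 symbol, which the rule leaves out. Of these 25 probe sets, 12 were equal in both arrays, beside 35.9% of all probe sets. At 2-fold, 1 was lower, the TRIM16L and TRIM16 set above, and 0 were higher, beside 3.70% and 5.22% of all named genes. Both probe sets of TRIM13, a ligase of the endoplasmic reticulum that shares them with KCNRG, stood lower with p53, at 7.28 and 6.35, against 8.03 and 7.20 in the negative control. The 3 sets of TRIM39 and its read-through transcript held identical values, with a difference of -0.04. The 3 sets shared by RPP21 and that read-through transcript had -0.81, -0.85 and -0.85. Those of TRIM58 and OR2W3 had -0.31, -0.20 and -0.20. The set of TRIM6, TRIM34 and their read-through transcript was equal at 5.81.

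**Figure D3:**
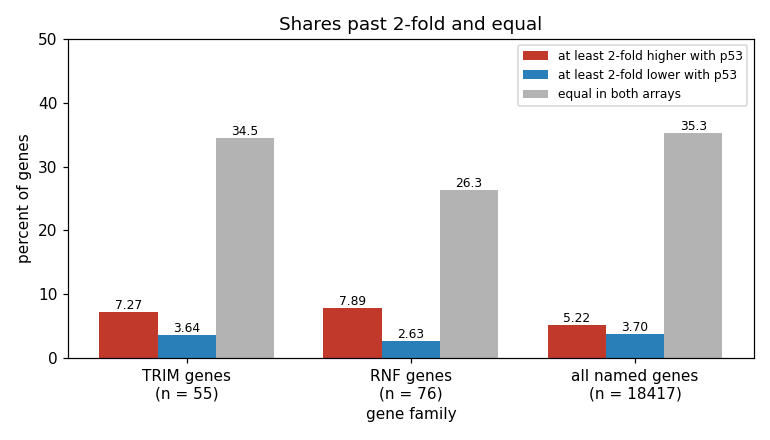
Percent of genes (y axis) at least 2-fold higher with p53, at least 2-fold lower with p53 and equal in both arrays, for 55 TRIM genes, 76 RNF genes and all 18417 named genes. The TRIM shares are 7.27%, 3.64% and 34.5%, and those of all named genes are 5.22%, 3.70% and 35.3%.

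Genes with an RNF symbol, another large group of mostly RING finger ligases, were counted the same way. At 2-fold, 6 of 76 were higher with p53 and 2 were lower. These are 7.89% and 2.63%, beside 5.22% and 3.70% of all named genes, and the median was 0.00. Their largest difference, that of RNF144B at 5.41, was beyond the 2.09 of TRIM22. TRIM proteins that carry other names were also examined. At 2-fold, 1 of 12 was higher with p53 (8.33%) and 0 were lower, beside 5.22% and 3.70% of all named genes. Equal in both arrays were 8 (66.7%), beside 35.3% of all named genes. The higher one was PML, the organiser of nuclear bodies that bind p53, at 10.16 on the p53 array and 8.68 on the negative control array, a 2.78-fold difference. MID1, a microtubule-bound ligase, stood at 8.89 with p53 and 9.03 in the negative control. TRIML2 was equal at 6.31, below the median of all probe sets.

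**Figure D4:**
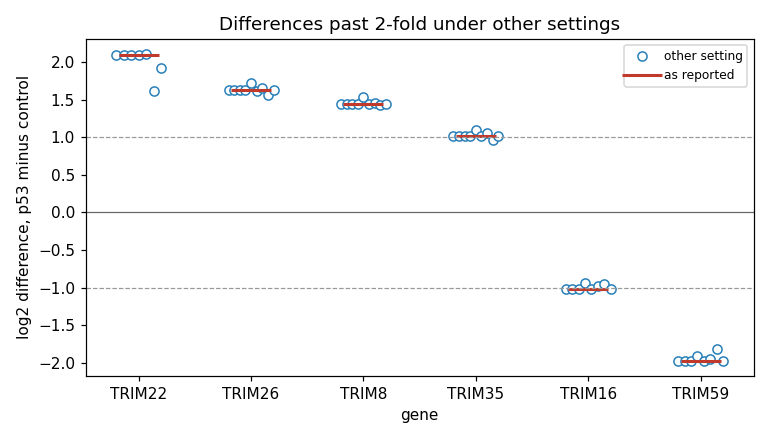
Log2 difference, p53 array minus negative control array (y axis), of the 6 TRIM genes past 2-fold (x axis), as reported (bars) and under each other setting (open points), with dashed lines at 2-fold. TRIM22, TRIM26, TRIM8 and TRIM59 stay beyond the lines in each setting plotted, while TRIM35 spans 0.96 to 1.10 and TRIM16 -1.01 to -0.94.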

How the data were processed

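Biotin-labelled total RNA, prepared with Trizol, was read on Affymetrix arrays, per the labels' protocols. The authors deposited log2 intensities made with RMA, as the submitters' processing notes name it, and no software version is given in the sources used here. That they are log2 follows from their range (1.41 to 14.68), and the sorted columns differ by at most 0.192. A change of total RNA per cell cannot be read from such values.

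Of 33297 probe sets, 19460 had 1 symbol in GEO's platform annotation, 1754 several and 12083 none in the table used. Gene identifiers served to bring symbols up to date in a RefSeq table (GRCh38.p14). Where a gene had several probe sets (769 genes, 7 of them TRIM), the one with the highest mean was used. No intensity filter was applied, since a filter on the higher array keeps genes for differing. A gene was called at 2-fold, and no test was made because each group has 1 array. The calling and trend steps were checked on simulated data, and the quantile normalization on the deposited values. Promoter sequences are from RefSeq, in which 43 of the 55 genes matched.

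Named were every member 2-fold apart and every member reaching the median of all probe sets (7.38) in either array, the rest by class, and of other lists the members 2-fold apart with up to 4 others; more names in the interferon list, the neighbours and the shared probe sets were chosen after their values were seen. The members and lists were chosen with earlier results of these data known. Alternatives were thresholds of 1.5-fold and 3-fold, 3 intensity filters, centring, lowess (span 0.3), the mean over probe sets, quantile normalization, an offset of 32, omission of equal values, and a floor added later. Python 3.11.15, numpy 2.4.6, pandas 2.3.3, statsmodels 0.14.6 and matplotlib 3.10.9 were used.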

Additional observations from a re-analysis of the deposited data

How the results depend on the processing

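The counts of 4 TRIM genes higher and 2 lower at 2-fold became 7 and 7 at 1.5-fold and 2 and 1 at 3-fold. The lower count was 1 with the lowess trend removed, 1 after quantile normalization and 1 with an offset of 32, as TRIM16 then missed the threshold, and 0 with the mean of the arrays at or above the 75th percentile (9.01), where 11 members were left. The higher count was 3 with the offset, where TRIM35 stood at 0.96, and 3 with the mean of the arrays at or above the median, which leaves out TRIM22. The family median lay between -0.08 and 0.01 in every setting that gave one. Over the settings, TRIM22 ranged from 1.62 to 2.10, TRIM26 from 1.56 to 1.72, TRIM8 from 1.43 to 1.53 and TRIM59 from -1.97 to -1.81. The filters and the centring leave the difference of a single gene as it is. Of 87 values of single genes with the lowess trend removed, after quantile normalization or with the offset, 83 kept their side of 2-fold. The other 4 lost it, 3 of them for TRIM16 and 1 for TRIM35. Most of the 87 belong to members not called, whose differences of at most 0.70 in size lay too far from 2-fold to cross it. The 83 thus say little of how stable the 6 calls are. No paired analysis was possible because each group has 1 array. An array gives no counts, so the number of arrays limits the precision, and none of these settings shows the spread between cultures.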
